A study of Mus musculus with 8 samples.

Results

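Platelets and their parent cell, the megakaryocyte, are recognised by a small group of surface receptors and granule chemokines. The 9 genes described here, chosen by symbol from the 55291 genes of the deposited table, were the integrin chains Itga2b and Itgb3, the glycoprotein genes Gp1ba, Gp1bb and Gp9, the receptors Clec1b and Treml1, and the chemokines Pf4 and Ppbp. They were measured by RNA sequencing in mouse spleen CD8+ T cells, which the sample titles call naïve CD8 T cells. There were 4 libraries titled ATF4 overexpression, whose genotype is given as ATF4 Tg/Tg, and 4 libraries labelled WT. Strain, age and sex are not given in the labels used here, and no treatment is named beyond the word naïve. The series' design text instead names the mice as E8IcreATF4Tg/Tg or ATF4Tg/Tg, and by those names both groups carry the transgene and differ in E8Icre. WT is used here only as the sample labels have it. E8I refers to an enhancer of the Cd8 locus that drives Cre in mature CD8 T cells. Cells were enriched with a magnetic kit and no fluorescence sort is described. The labels do not state that libraries came from separate mice. The spread that p-values rest on is therefore that of libraries and may be technical.

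As background, Itga2b and Itgb3 pair to form the fibrinogen receptor of platelets, while Gp1ba, Gp1bb and Gp9 form, with Gp5, the receptor for von Willebrand factor. Clec1b encodes CLEC-2, the podoplanin receptor, Treml1 encodes a receptor stored in α-granules, and Pf4 and Ppbp encode α-granule chemokines. Megakaryocyte genes are classically controlled by GATA and ETS factors. Platelets lack a nucleus but carry RNA, and platelets can adhere to leukocytes.

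Promoters of 5 of the genes are shown because they cover an integrin chain, both kinds of receptor subunit and both chemokines, and because they differ in these motifs. Each run is the 250 bases before the start that RefSeq gives the gene, 5′ to 3′ on the gene's strand, on GRCm38.p6. Gene positions elsewhere are those of GENCODE, whose Itga2b gene begins farther upstream, so 239 bases of the Itga2b window lie inside the GENCODE gene. Capitals mark letters of GATA motifs (AGATAA or AGATAG or TGATAA or TGATAG) or ETS motifs (AGGAAG or CGGAAG), on either strand. The windows are chr11:70638872-70639121 (plus strand) for Gp1ba, chr6:87777820-87778069 (plus) for Gp9, chr11:102469884-102470133 (minus) for Itga2b, chr5:90772185-90772434 (plus) for Pf4 and chr5:90768268-90768517 (plus) for Ppbp.
Gp1ba: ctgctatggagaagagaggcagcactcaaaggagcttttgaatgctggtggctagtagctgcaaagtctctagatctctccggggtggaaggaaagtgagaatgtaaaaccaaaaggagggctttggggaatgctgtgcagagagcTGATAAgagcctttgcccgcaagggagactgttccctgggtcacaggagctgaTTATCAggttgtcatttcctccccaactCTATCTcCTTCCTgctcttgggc
Gp9: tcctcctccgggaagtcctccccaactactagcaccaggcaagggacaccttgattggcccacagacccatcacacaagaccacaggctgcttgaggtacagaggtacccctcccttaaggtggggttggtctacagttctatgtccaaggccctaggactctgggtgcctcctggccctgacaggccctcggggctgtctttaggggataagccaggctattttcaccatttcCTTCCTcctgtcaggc
Itga2b: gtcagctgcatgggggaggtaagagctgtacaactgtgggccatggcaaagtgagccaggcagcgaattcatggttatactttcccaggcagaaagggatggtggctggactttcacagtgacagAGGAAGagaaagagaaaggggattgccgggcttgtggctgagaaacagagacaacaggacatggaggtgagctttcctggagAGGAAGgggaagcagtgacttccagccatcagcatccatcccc
Pf4: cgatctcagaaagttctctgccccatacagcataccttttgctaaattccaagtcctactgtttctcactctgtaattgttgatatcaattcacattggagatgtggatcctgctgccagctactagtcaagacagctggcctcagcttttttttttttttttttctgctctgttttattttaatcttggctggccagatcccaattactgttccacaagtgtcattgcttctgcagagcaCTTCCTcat
Ppbp: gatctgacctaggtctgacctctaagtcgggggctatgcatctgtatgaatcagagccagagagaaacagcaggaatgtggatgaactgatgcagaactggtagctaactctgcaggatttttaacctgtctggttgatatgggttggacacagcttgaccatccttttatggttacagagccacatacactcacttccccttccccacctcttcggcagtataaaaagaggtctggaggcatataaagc

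Of the 9 genes, 8 were matched in the promoter table, all but Itgb3. The Gp1ba window held 3 GATA matches and 1 ETS match, the Itga2b window 2 ETS matches, the Gp9 and Pf4 windows 1 ETS match each, and the Ppbp window neither. Outside the printed windows, Gp1bb held 1 of each, Clec1b 1 GATA match and Treml1 neither. A GATA match was present in 3 of 8 windows, against 27.1% of 27025 promoter windows of the same length. An ETS match was present in 5 of 8, against 39.0%, and both were present in 2 of 8, against 9.38%. A match describes letters and is not a measured binding site.

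Library totals were between 93478686 and 125974143 estimated counts, and 17446 to 20338 genes were detected per library. The table's column names form 2 sets, replicates 1 and 2 of each group and replicates 3 and 4 of each group, and libraries of a set resembled each other more than libraries of the other set. In all, 4 libraries had few genes at counts of 2 to 5, under 4% of detected genes. These were ATF4 overexpression replicates 1 and 2 and WT replicates 1 and 4, and the reason is not stated. Atf4 itself, at chr15:80255184-80257541, had 445, 427, 228 and 212 CPM (counts scaled by library size) in ATF4 overexpression replicates 1 to 4, against 285, 308, 165 and 165 CPM in WT replicates 1 to 4. The groups overlapped, and the log2 fold change was 0.51 ± 0.31 (SE; edgeR adjusted p = 0.37). With replicate number as a block it was 0.48 (adjusted p = 2.2e-04), and it was 0.59 within replicates 1 and 2 (adjusted p = 0.0038) and 0.41 within replicates 3 and 4 (adjusted p = 0.0046). Whether the transgene's transcript is counted as Atf4 is not stated.

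Across the 9 genes, 5 were higher in ATF4 overexpression libraries by edgeR's quasi-likelihood test at a Benjamini-Hochberg adjusted p under 0.05: Itga2b, Itgb3, Gp1ba, Gp9 and Treml1. Of all 16630 genes tested, 9.16% were called higher. None of the 9 was lower (0 at an unadjusted p under 0.05, and 0 by DESeq2 or limma-voom), against 4.89% of all genes. Among tested genes with a mean under 1 CPM, where 7 of the 9 lie, 6.35% were higher and only 10 of 4223 lower. ATF4 overexpression values lay above all WT values for 8 of 9 genes, all but Gp1bb, against 13.3% of all genes. Itga2b and Itgb3 passed the low-count filter in every WT library, but the other 7 passed it only through the ATF4 overexpression libraries, so these counts describe the genes and support nothing further. Replicates 1 and 2 alone called 3 of the 9 (Itga2b, Itgb3 and Ppbp), against 6.75% of all genes, and replicates 3 and 4 alone called 5 (Itga2b, Itgb3, Gp1ba, Gp9 and Pf4), against 14.3%. Without the 4 libraries with few low counts 3 were called, against 7.29%, and with replicate number as a block 5, against 13.7%. The median log2 fold change was 2.68, against -0.02 for all genes tested and 0.25 for tested genes with a mean under 1 CPM. In bulk RNA, more cells of a type and more RNA per cell cannot be told apart.

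**Figure D1:**
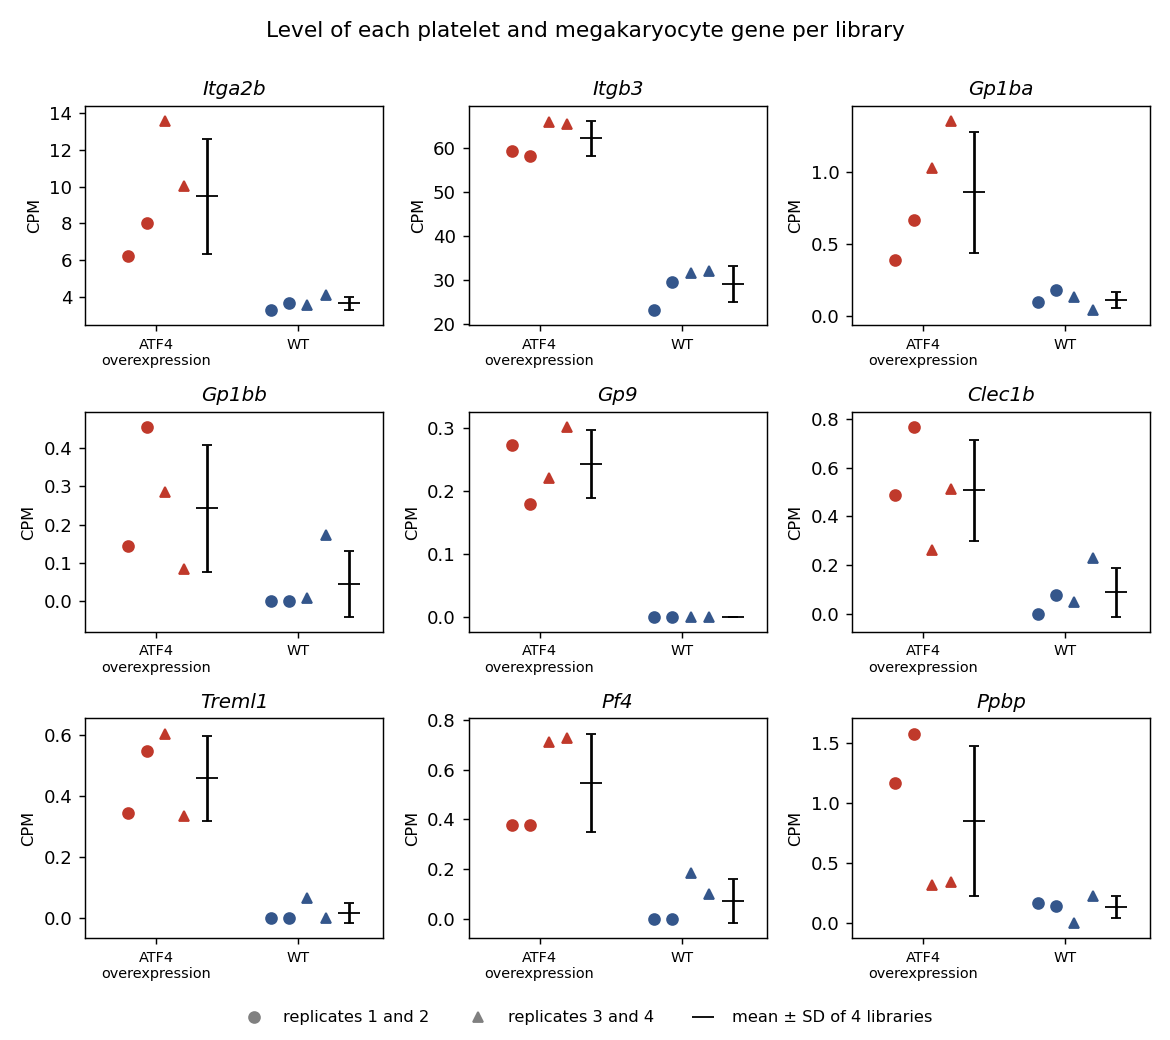
CPM of the 9 genes (y axes, separate scales that need not start at 0) in each library, by group (x axis). Circles are replicates 1 and 2, triangles replicates 3 and 4, and bars show mean ± SD of 4 libraries. Gp9 was at 0 in all 4 WT libraries, and Gp1bb is the 1 gene whose groups overlap.

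The integrin chains were the most abundant members and the most precisely measured. Itgb3, at chr11:104608000-104670476 on the plus strand, had 59.2, 58.2, 65.8 and 65.3 CPM in ATF4 overexpression libraries, against 23.1, 29.5, 31.5 and 32.1 CPM in WT libraries. Every ATF4 overexpression library was above every WT library. Means were 62.1 ± 3.98 CPM in ATF4 overexpression and 29.1 ± 4.11 CPM in WT libraries (SD, n = 4 each), a log2 fold change of 1.10 ± 0.11 (edgeR adjusted p = 2.0e-04). Itga2b, at chr11:102453297-102470122 on the minus strand, had 6.22, 8.03, 13.6 and 10.03 CPM in ATF4 overexpression libraries, against 3.27, 3.67, 3.56 and 4.08 CPM in WT libraries. Again the groups did not overlap, and ATF4 overexpression replicate 3 was the highest. Its means were 9.46 ± 3.15 CPM in ATF4 overexpression and 3.65 ± 0.338 CPM in WT libraries (SD, n = 4 each), a log2 fold change of 1.38 ± 0.24 (edgeR adjusted p = 0.0039). Both genes were called in each of 8 fits that left out 1 library. Within replicates 1 and 2 the log2 fold changes were 1.19 for Itgb3 and 1.07 for Itga2b (adjusted p = 0.0012 and 0.033), and within replicates 3 and 4 they were 1.05 and 1.63 (adjusted p = 1.5e-04 and 0.0020).

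Itgb3 made up most of the summed counts of the 9 genes, 79.5% to 86.3% in ATF4 overexpression libraries and 86.7% to 88.7% in WT libraries. Its counts exceeded those of Itga2b 4.85 to 9.51 times in ATF4 overexpression libraries and 7.08 to 8.86 times in WT libraries. Itgav, the other α partner of Itgb3 and named after its values were seen, averaged 25.3 ± 1.96 CPM in ATF4 overexpression and 26.1 ± 3.16 CPM in WT libraries (SD, n = 4 each). Its log2 fold change was -0.05 (edgeR adjusted p = 0.85), and its sign changed to 0.13 within replicates 1 and 2 and to 0.034 without WT replicate 3.

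Among the von Willebrand factor receptor genes, Gp1ba and Gp9 were higher and Gp1bb did not pass the test. Gp1ba, the ligand-binding chain at chr11:70639122-70642036 on the plus strand, had 49, 71, 126 and 162 counts in ATF4 overexpression libraries, against 9, 18, 16 and 5 counts in WT libraries. The groups did not overlap, and ATF4 overexpression replicates 3 and 4 were the highest. Its means were 0.862 ± 0.420 CPM in ATF4 overexpression and 0.114 ± 0.0578 CPM in WT libraries (SD, n = 4 each), a log2 fold change of 2.91 ± 0.65 (edgeR adjusted p = 0.015). Without ATF4 overexpression replicate 4 the adjusted p was 0.069. Replicates 1 and 2 alone gave a log2 fold change of 1.94 (adjusted p = 0.35) and replicates 3 and 4 alone 3.76 (adjusted p = 0.013).

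Gp9, the small subunit gene at chr6:87778072-87779768 on the plus strand, had 34, 19, 27 and 36 counts in ATF4 overexpression libraries and 0 counts in all 4 WT libraries. It averaged 0.243 ± 0.0542 CPM in ATF4 overexpression libraries (SD, n = 4). With 3 counts over the whole WT group as the floor, it was at least 35.2-fold higher (edgeR adjusted p = 0.011). Each fit that left out 1 library called it, with adjusted p between 0.019 and 0.0497, but without the 4 libraries with few low counts the adjusted p was 0.069. This floor covers counting error only.

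Gp1bb, at chr16:18620317-18622403 on the minus strand, had 18, 48, 35 and 10 counts in ATF4 overexpression libraries, against 0, 0, 1 and 21 counts in WT libraries. WT replicate 4 lay above ATF4 overexpression replicates 1 and 4. Means were 0.242 ± 0.164 CPM in ATF4 overexpression and 0.0453 ± 0.0851 CPM in WT libraries (SD, n = 4 each), and the log2 fold change of 2.35 ± 1.42 did not pass the test (edgeR adjusted p = 0.35). Without WT replicate 4 it was 5.85 (adjusted p = 0.038). The gene shares 1902 of its 2087 exon bases with Septin5 and 867 with Gm49601 on the same strand, so its reads were divided between genes by a model and its values are uncertain. Septin5, a septin gene, averaged 0.889 ± 0.254 CPM in ATF4 overexpression and 0.313 ± 0.278 CPM in WT libraries (SD, n = 4 each; edgeR adjusted p = 0.38).

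**Figure D2:**
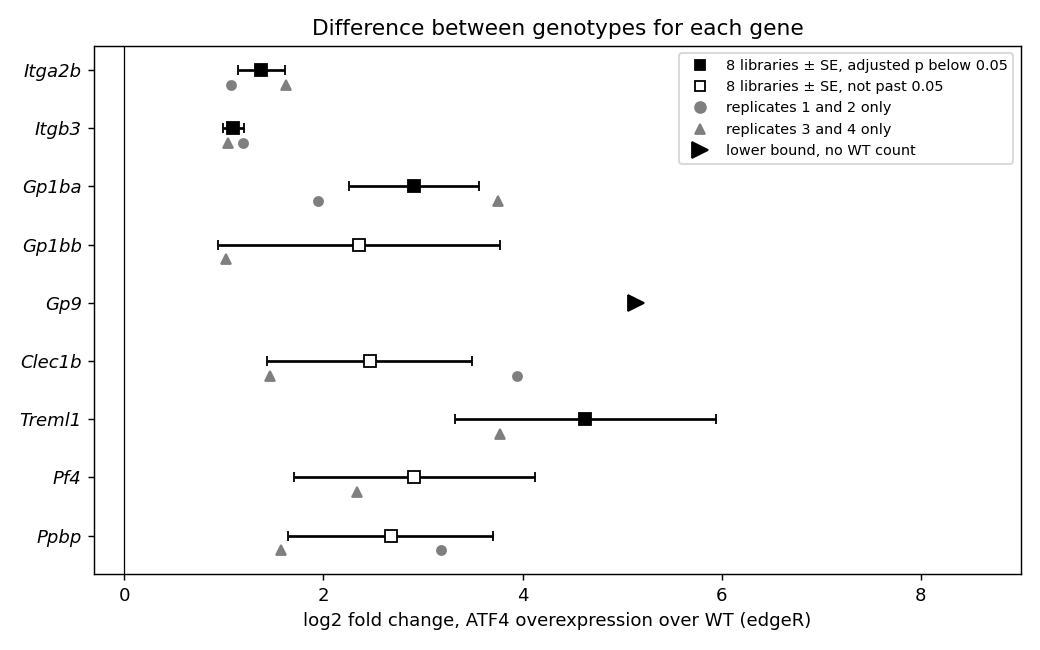
Log2 fold change of each gene, ATF4 overexpression over WT (x axis), with its standard error, for all libraries and within each pair of replicates. Gp9 is drawn as a lower bound, log2 5.14, and estimates against WT libraries at 0 are left out. All estimates shown are above 0.

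Treml1 was higher, and Clec1b did not pass the test. Treml1, at chr17:48359916-48367176 on the plus strand, had 43, 58, 74 and 40 counts in ATF4 overexpression libraries, against 0, 0, 8 and 0 counts in WT libraries. All WT counts but those of replicate 3 were 0. Its means were 0.458 ± 0.138 CPM in ATF4 overexpression and 0.0167 ± 0.0334 CPM in WT libraries (SD, n = 4 each), a log2 fold change of 4.63 ± 1.31 (edgeR adjusted p = 0.043). That call held in 1 of 8 fits that left out a library, the one without WT replicate 3 (adjusted p = 0.0099). In the other 7 the adjusted p was between 0.074 and 0.12, and without the 4 libraries with few low counts it was 0.18. Clec1b, at chr6:129397297-129409335 on the plus strand, had 61, 81, 32 and 61 counts in ATF4 overexpression libraries, against 0, 8, 6 and 28 counts in WT libraries. The lowest ATF4 overexpression count was just above the highest WT count. Its means were 0.506 ± 0.206 CPM in ATF4 overexpression and 0.0900 ± 0.0992 CPM in WT libraries (SD, n = 4 each; log2 fold change 2.46 ± 1.03, edgeR adjusted p = 0.16). Clec1b shares 184 of 5103 exon bases with Clec9a, a dendritic cell receptor gene, which averaged 0.959 CPM in ATF4 overexpression and 0.131 CPM in WT libraries (edgeR adjusted p = 0.094). Clec9a passed with replicate number as a block (adjusted p = 0.049), with library set as a block (0.022) and by DESeq2 (0.015).

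The chemokine genes lie beside each other, with 2371 bases between the end of Ppbp and the start of Pf4, and neither passed the test. Pf4, at chr5:90772435-90773383 on the plus strand, had 47, 40, 87 and 87 counts in ATF4 overexpression libraries, against 0, 0, 22 and 12 counts in WT libraries. The groups did not overlap, and replicates 3 and 4 were higher in both. Its means were 0.548 ± 0.198 CPM in ATF4 overexpression and 0.0705 ± 0.0885 CPM in WT libraries (SD, n = 4 each; log2 fold change 2.91 ± 1.21, edgeR adjusted p = 0.16). A block for library set gave 3.90 (adjusted p = 0.024), and replicates 3 and 4 alone gave 2.34 (adjusted p = 0.047).

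Ppbp, at chr5:90768518-90770063 on the plus strand, had 146, 167, 39 and 41 counts in ATF4 overexpression libraries, against 15, 14, 0 and 27 counts in WT libraries. Among ATF4 overexpression libraries, replicates 1 and 2 were the highest, the opposite order to that of Gp1ba and Pf4. WT libraries did not show this order, with replicate 4 the highest. Means were 0.852 ± 0.624 CPM in ATF4 overexpression and 0.133 ± 0.0949 CPM in WT libraries (SD, n = 4 each; log2 fold change 2.68 ± 1.03, edgeR adjusted p = 0.13). DESeq2 called it (adjusted p = 0.032). Replicates 1 and 2 alone gave a log2 fold change of 3.18 (adjusted p = 0.024) and replicates 3 and 4 alone 1.57 (adjusted p = 0.54). The ratio of Gp1ba to Ppbp counts was 0.336 and 0.425 in ATF4 overexpression replicates 1 and 2, and 3.23 and 3.95 in replicates 3 and 4. No interaction between genotype and library set passed the test for any of the 9 genes (smallest adjusted p = 0.23, for Pf4; 1 gene was under an unadjusted p of 0.05, and other tools were not run on it), against 0.998% of all genes in either direction.

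Per kilobase of exon, Itgb3 was the most abundant of the 9, at 10.5 CPM per kb in ATF4 overexpression and 4.92 CPM per kb in WT libraries. Itga2b had 1.74 CPM per kb in ATF4 overexpression and 0.668 CPM per kb in WT libraries. In ATF4 overexpression libraries the next were Ppbp at 0.787 and Pf4 at 0.760 CPM per kb, which did not differ beyond their spread over libraries. Treml1 at 0.326, Gp1ba at 0.317 and Gp9 at 0.276 CPM per kb were as close, and Gp1bb at 0.116 and Clec1b at 0.0992 CPM per kb were the lowest. The 7 genes other than the integrins summed to 3.19, 4.57, 3.43 and 3.66 CPM in ATF4 overexpression libraries, against 0.271, 0.397, 0.442 and 0.765 CPM in WT libraries. In every ATF4 overexpression library all 9 genes had counts, while 5, 4, 2 and 2 of them were at 0 in WT replicates 1 to 4.

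Other genes of the lineage were counted in 5 lists by role, 56 genes of which 50 were tested. Of these, 25 were higher and 0 lower (3 lower at an unadjusted p under 0.05, 1 lower by DESeq2 and 0 by limma-voom). Among all genes tested, 9.16% were higher and 4.89% lower. The median log2 fold change of the 50 was 2.12. Limma-voom called 18 higher, against 1373 of all 16630 genes tested. The test within replicates 1 and 2 called 16 higher, against 6.75% of all genes. With the replicate block 30 were higher and 2 lower, against 13.7% and 13.5% of all genes. With library set as a block 33 were higher and 3 lower, against 2327 and 1927 of all 16630 genes tested. Of 31 that passed the filter in all WT libraries, 19 were higher. Of the 56, 6 are also on a marker list given below. Among the 45 tested genes on no such list, 22 were higher.

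Among adhesion receptors, 4 of 5 were higher, against 9.16% of all genes. Within replicates 1 and 2 only 1 was higher, against 6.75% of all genes. Without the 4 libraries with few low counts 2 were higher, against 7.29%. Itga2, the collagen receptor chain, averaged 23.1 ± 3.08 CPM in ATF4 overexpression and 7.50 ± 3.08 CPM in WT libraries (SD, n = 4 each; log2 fold change 1.62, edgeR adjusted p = 0.0035). Gp5, the partner of the Gp1b complex, averaged 1.49 ± 0.813 CPM in ATF4 overexpression and 0.194 ± 0.0374 CPM in WT libraries (log2 fold change 2.93, edgeR adjusted p = 0.0051), and limma-voom did not call it (adjusted p = 0.052). Pear1, a platelet aggregation receptor, had a log2 fold change of 0.37 (edgeR adjusted p = 0.032), and was called in 2 of 8 fits that left out a library.

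Agonist receptors gave 1 higher of 9, near the 9.16% of all genes. With the replicate block 3 were higher and 2 lower, against 13.7% and 13.5% of all genes. P2ry1, an ADP receptor, averaged 3.61 ± 2.54 CPM in ATF4 overexpression and 0.340 ± 0.164 CPM in WT libraries (SD, n = 4 each; log2 fold change 3.40, edgeR adjusted p = 0.0057; limma-voom adjusted p = 0.081). F2r, the thrombin receptor PAR1, had a log2 fold change of 0.43, F2rl2 of 0.73 and Tbxa2r, the thromboxane receptor, of -0.54 (edgeR adjusted p = 0.062, 0.074 and 0.087). With replicate number as a block these 3 passed (adjusted p = 5.1e-04, 0.022 and 0.0031).

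The list of granule and secreted proteins gave 6 higher of 14, against 9.16% of all genes (9 with the replicate block, against 13.7%). It also holds Nrgn, whose protein is cytosolic. Nrgn, neurogranin, averaged 10.3 ± 3.26 CPM in ATF4 overexpression and 0.816 ± 0.257 CPM in WT libraries (SD, n = 4 each; log2 fold change 3.65, edgeR adjusted p = 8.2e-05). Angpt1, the growth factor angiopoietin-1, had a log2 fold change of 4.06 (adjusted p = 0.0023), and Pdgfb, a platelet-derived growth factor chain, 1.59 (adjusted p = 0.011; without the 4 libraries with few low counts, 0.16). Mmrn1, multimerin, had 4.22 (adjusted p = 0.021), lost without ATF4 overexpression replicate 3 (0.060) or 4 (0.061). Tgfb1 had 0.29 (adjusted p = 0.027) and was called in 3 of 8 fits that left out a library.

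Cytoskeletal, granule and enzyme genes gave 6 higher of 12, against 9.16% of all genes (7 with the replicate block, against 13.7%). Within replicates 1 and 2 there were 3, against 6.75%. Ptgs1, cyclooxygenase-1, had a log2 fold change of 3.27, Tbxas1, thromboxane synthase, 3.29, and Slc35d3, a platelet dense granule gene, 4.82 (edgeR adjusted p = 8.3e-04, 0.0014 and 0.0039). Rgs18 had 3.94 (edgeR adjusted p = 0.0013; limma-voom 0.059). Cavin2 had 3.99 (adjusted p = 0.018), lost without ATF4 overexpression replicate 4 (0.056) or WT replicate 3 (0.057) and with limma-voom (0.082).

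Transcription factors of the lineage gave 8 higher of 10, against 9.16% of all genes (7 with the replicate block, against 13.7%). Within replicates 1 and 2 there were 5, against 6.75%. The list's median log2 fold change over all libraries was 4.01. Gata2 averaged 27.4 ± 11.5 CPM in ATF4 overexpression and 1.59 ± 0.454 CPM in WT libraries (SD, n = 4 each; log2 fold change 4.10, edgeR adjusted p = 8.2e-05). Gata1 had a log2 fold change of 2.94 (edgeR adjusted p = 0.0046). Tal1 had 5.09, 4.92, 29.7 and 28.2 CPM in the ATF4 overexpression libraries, and Nfe2 had 8.47, 9.19, 33.9 and 37.8 CPM. In both, replicates 3 and 4 were the higher ones, and WT libraries averaged 0.883 ± 0.356 CPM for Tal1 and 1.46 ± 0.841 CPM for Nfe2 (SD, n = 4 each). Limma-voom did not call Tal1 (adjusted p = 0.14) or Nfe2 (0.085), which edgeR called at 0.0049 and 0.0062. Some genes named from the 5 lists were called with all libraries but not within replicates 1 and 2 alone. These were Gp5, Pear1, P2ry1, Mmrn1, Tgfb1, Slc35d3 and Cavin2. Called with all libraries, but not without the 4 libraries with few low counts, were Pear1, Pdgfb and Tgfb1. GATA factors are also used by erythroid and mast cells.

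Of 22 genes that platelets share with other leukocytes, 5 were higher and 2 lower (7 and 4 with the replicate block). Among all genes, 9.16% were higher and 4.89% lower (13.7% and 13.5% with the replicate block). The list's median log2 fold change was 0.04. Syk, the kinase downstream of CLEC-2 (log2 fold change 2.91, edgeR adjusted p = 9.1e-06), Plcg2 (2.05, 2.6e-05), Itgb1 (0.87, 0.0043) and Fcer1g (2.31, 0.0071) were higher. Pecam1 was lower (-0.35, edgeR adjusted p = 0.0068), though not within replicates 1 and 2 (0.14) or without the 4 libraries with few low counts (0.060).

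**Figure D3:**
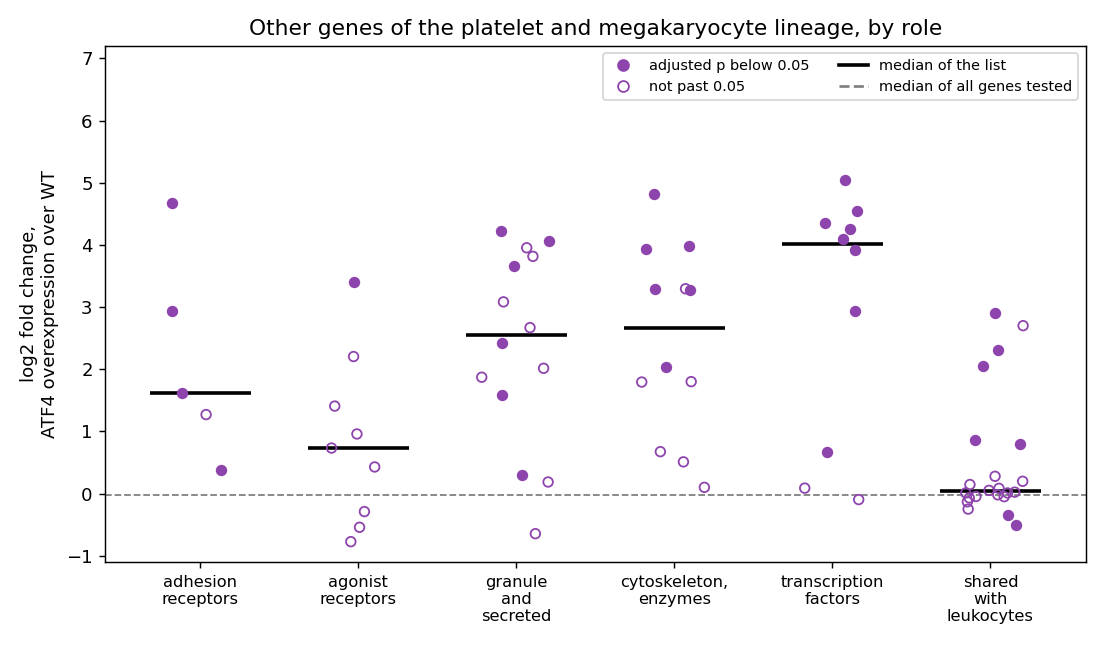
Log2 fold change, ATF4 overexpression over WT (y axis), of genes outside the 9 by role (x axis). Filled points passed an adjusted p of 0.05, black bars are list medians and the dashed line is the median of all genes tested. Transcription factors have the highest median, 4.01.

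Some markers of other blood cells were also higher in ATF4 overexpression libraries. Among all genes, 9.16% were called higher and 4.89% lower. These shares were 6.75% and 3.07% within replicates 1 and 2, and 14.3% and 8% within replicates 3 and 4. With the replicate block they were 13.7% and 13.5%, and without the 4 libraries with few low counts 7.29% and 1.94%. Some genes of the 5 role lists are also on these marker lists. Any marker that passed the low-count filter only through ATF4 overexpression libraries could hardly be called lower, so the counts below only describe the lists. The erythroid list summed to 96.1 to 336 CPM in ATF4 overexpression libraries and 14.2 to 18.2 CPM in WT libraries, with 11 of 15 genes higher (5 within replicates 1 and 2). Stem and progenitor markers, of which 9 of 9 were higher (3 within replicates 1 and 2, and 5 without the 4 libraries with few low counts), summed to 81.6 to 170 CPM in ATF4 overexpression and 21.4 to 32.2 CPM in WT libraries. Neutrophil markers, 6 of 12 higher (10 with the replicate block), summed to 35.3 to 133 CPM in ATF4 overexpression and 1.21 to 8.04 CPM in WT libraries. Monocyte and macrophage markers, 9 of 13 higher, summed to 165 to 336 CPM in ATF4 overexpression and 32.3 to 86.3 CPM in WT libraries. Sums of both lists did not overlap between the groups. Basophil and mast cell markers, 2 of 8 higher (4 with the replicate block), summed to 44.5 to 132 CPM in ATF4 overexpression and 4.53 to 12.2 CPM in WT libraries. Proliferation genes, 9 of 12 higher, summed to 427 to 916 CPM in ATF4 overexpression and 242 to 298 CPM in WT libraries. B cell sums overlapped, at 591 to 944 CPM in ATF4 overexpression and 591 to 763 CPM in WT libraries. Of 11 B cell markers 6 were higher, against 10 within replicates 1 and 2 and 1 without the 4 libraries with few low counts. NK cell sums also overlapped, at 215 to 452 CPM in ATF4 overexpression and 109 to 217 CPM in WT libraries. Of 8 NK cell markers 3 were higher by edgeR, against 7 within replicates 1 and 2, 0 with the replicate block and 0 without the 4 libraries with few low counts. Endothelial markers summed to 116 to 132 CPM in ATF4 overexpression and 137 to 155 CPM in WT libraries, with 5 of 9 higher and 1 lower. Of 8 mitochondrially encoded genes, 1 was lower (4 with the replicate block). No marker of these lists was at 0 in all libraries, and Procr and Mecom were at 0 in the WT libraries. CD8 T cell markers summed to 8881 to 9511 CPM in ATF4 overexpression and 10865 to 11409 CPM in WT libraries, with 6 of 16 lower. Lower CD8 T cell markers numbered 13 with the replicate block, 2 within replicates 1 and 2, 11 within replicates 3 and 4, and 0 without the 4 libraries with few low counts by the same edgeR test. Erythroid sums were 96.1 to 97.1 CPM in ATF4 overexpression replicates 1 and 2 and 324 to 336 CPM in replicates 3 and 4. The part of these cell types in the platelet gene results was not tested.

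**Figure D4:**
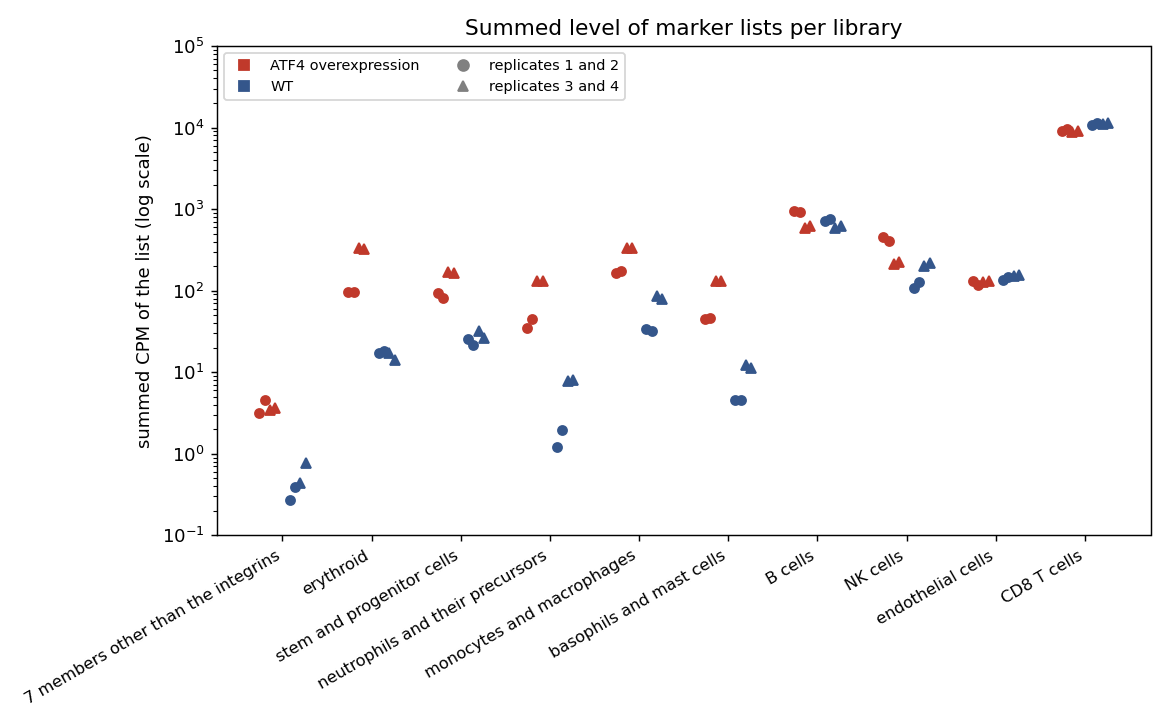
Summed CPM (log scale) of the 7 genes other than the integrins and of marker lists for other cell types, per library. Within each list ATF4 overexpression libraries are left of WT libraries. Erythroid sums were at least 96.1 CPM in ATF4 overexpression libraries and 14.2 to 18.2 CPM in WT libraries.

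Genes outside the 9 with a library profile most like their mean profile were Pde4a, Lamc1, Efcab11, Tubb3 and Psat1, at root mean square differences of 0.183, 0.186, 0.217, 0.229 and 0.239 in log2 CPM over 8 libraries. The 9 genes themselves differed from their mean profile by 0.711 (Gp9) to 1.30 (Ppbp).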

How the data were processed

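Spleen CD8+ T cell RNA was sequenced in 8 libraries. The values are estimated counts, which the authors deposited for all libraries in 1 table, and Salmon 1.4.0 and GRCm38.p6 are named in the submitters' processing notes. The annotation release and any filter on low values were not given in the sources used here. Salmon divides reads of overlapping genes by a model. The table's 8 columns were mapped by library name, with 0 unmapped. No pair of libraries was close enough to be a repeat deposit of 1 library.

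Estimated counts were rounded to whole numbers. Tests used edgeR 4.0.16 in R 4.3.3 (TMM factors, filterByExpr with a minimum count of 10, robust quasi-likelihood F test), with Benjamini-Hochberg adjustment over all 16630 genes tested. The SE was derived from the F statistic. CPM uses TMM-scaled library totals. Alternatives were other scalings and filters, DESeq2 1.42.0, limma-voom (limma 3.58.1), blocks, each library set alone, and libraries left out. Code was tested on simulated data. Coordinates and exon lengths are from GENCODE M21 on GRCm38.

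The 9 genes and all lists were chosen with earlier results of these data known. Named genes are the 9, Atf4, genes overlapping them, up to 5 per list with the smallest p and a mean of at least 0.1 CPM, and the 5 nearest profiles with a mean of at least 0.5 CPM. Genes of marker lists are given as counts and sums, and some genes that the rule selects are not reported here. Replicate numbers come from the titles. Deviations from the group means correlated between same-numbered libraries at 0.223, 0.206, 0.285 and 0.222. The reported fit has no block, and the replicate block is an alternative. Its values are given for named genes whose call changed, and its counts for some of the lists. Different-numbered libraries of the same set correlated at 0.158 to 0.249. These values overlap those of same-numbered libraries, so they cannot tell pairing by number from library set. The labels state no pairing. Column names give the library sets, which no label explains.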

Additional observations from a re-analysis of the deposited data

Results flagged for a closer look

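Gp1bb was at 0.173 CPM in WT replicate 4, far from the other 3 WT libraries. Treml1 was at 0.0667 CPM in WT replicate 3, the 1 WT library not at 0. Pear1 was at 26.5 CPM in WT replicate 2, above the other WT libraries. This test for a sample standing apart by chance marks about 1 in 20 groups, and 86 pairs of a gene and a group were tested. For Treml1, with the other 3 WT libraries at 0, any value above 0 stands apart by this test.

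For 5 genes outside the 9 the log2 fold change differed between library sets by an edgeR interaction test, given as replicates 3 and 4 minus replicates 1 and 2. The difference was -1.37 for Itga2 (adjusted p = 0.0075), -1.86 for Pdgfb (0.0032), 2.67 for Tal1 (0.040), -0.63 for Itgb1 (0.021) and -2.11 for Fcer1g (0.0025). Of all genes, 0.998% passed this test in either direction.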

How the results depend on the processing

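Of the 9 genes, Itga2b and Itgb3 were called higher under all 19 alternatives each. The number called higher, 5, was 2 when a mean of at least 1 CPM was required (2 of the 9 were then tested), 3 within library set 1, 3 without the 4 libraries with few low counts, and 3 to 5 when 1 library was left out, with 3 without ATF4 overexpression replicate 4. With the replicate block it was 5, and no call among the 9 changed. DESeq2 and the library set block gave 6. No setting called any of the 9 lower. Among all genes, 1524 were higher, against 2327 with library set as a block, 2434 within set 2 and 1089 to 1431 with 1 library left out. Lower genes, 813, numbered 2237 with the replicate block, 1927 with library set as a block, 528 within set 1, 1365 within set 2, 333 without the 4 libraries with few low counts and 518 to 677 with 1 library left out. The direction changed for Atf4 (-0.11 without the 4 libraries with few low counts, which leaves ATF4 overexpression replicates 3 and 4 against WT replicates 2 and 3, unbalanced over the library sets), Gm49601 (-0.78 within set 2) and Itgav (0.13 within set 1, 0.034 without WT replicate 3). The cause was not tested. Among 36 other named genes, 615 values kept their call, 26 gained it and 33 lost it. Per kilobase of the longest transcript, Itga2b had 2.75 CPM in ATF4 overexpression libraries. Low counts limit the 7 genes other than the integrins, most of all in WT libraries.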
